A study of Gallus gallus with 6 samples.

Results

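Brain regional transcription factors, and 1 secreted factor that acts with them, were followed in cultured chicken neural crest. The set comprised 8 genes, named by symbol, though with earlier results of these data known: SIX3, OTX2, EN1, EN2, PAX2, FGF8, MEIS2 and EGR2. Of these, 6 had a probe set under their symbol in the platform annotation, with 9 probe sets between them, out of 13009 genes and 38382 chicken probe sets. EN2 and EGR2 were matched to no probe set and were not analysed here. Where a gene had 2 probe sets, the one with the higher mean over all 6 arrays was taken as its main one.

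Cells were neural crest cultures grown from neural tube explants of stage 9+ chicken embryos. After 4 h they received either media alone (control, 3 arrays) or homocysteine at 100 uM, a sulfur amino acid (3 arrays), and were kept for 6 h. Total RNA was read on Affymetrix chicken arrays. The labels name both Cy3 and Cy5 as dyes beside an Affymetrix labelling protocol, but the table holds 1 value per probe set and array, so each array was treated as 1-colour; this is an inference. No label states the strain, the axial level of the explants or how many explants lie behind an array. Nor is it said whether the arrays came from separate cultures. The p-values cover the spread among these 6 samples alone, and that spread may be technical.

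The early neural tube is divided along its length by transcription factors that are expressed in bands. SIX3 marks the anterior forebrain, and OTX2 covers forebrain and midbrain and ends at the midbrain-hindbrain boundary, the isthmus. FGF8 is secreted at the isthmus, where PAX2, EN1 and EN2 are expressed around it. MEIS2 is a homeodomain cofactor of the midbrain and hindbrain, and EGR2 marks alternating hindbrain segments. Cranial neural crest leaves the tube mainly from midbrain and hindbrain levels. Several of these genes are also expressed outside the brain, PAX2 in the otic placode and intermediate mesoderm, and OTX2 in anterior ectoderm and placodes.

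Across the series, median intensity per array lay between 57.7 and 70.9. Reporter probe sets, which match exogenous sequences, gave each array a background at their 95th percentile, between 53.2 and 84.9. A gene is called above background where its main probe set exceeded that value. All 8 neural crest markers looked up, SOX10 and FOXD3 among them, were above background on every array, as were all 5 measured markers of neural tube progenitors. The arrays numbered 1 in both groups stood apart: their ratio of 5′ to 3′ signal for ACTB was 0.0572 and 0.059, against 0.238 to 0.421 on the other 4. In bulk RNA, fewer cells of a type and less RNA per cell cannot be told apart.

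Some members expressed in the midbrain were detected in these cultures, and SIX3 of the anterior forebrain was not. Among those detected, OTX2 is a forebrain gene and MEIS2 a hindbrain gene as well, and FGF8 of the isthmus was detected on 1 array only. SIX3 was read by 1 probe set, and a set below background does not show that a transcript was absent. OTX2, PAX2 and MEIS2 were above background on all 6 arrays, EN1 on 5, FGF8 on 1 and SIX3 on 0. Thus 4 of the 6 measured genes were above background on at least 3 arrays, no higher a share than the 72.9% of all genes. Values of different probe sets cannot be ranked against each other, so levels are compared between arrays only.

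SIX3, the anterior forebrain factor, was read at 31.1, 33 and 24.6 on control arrays 1 to 3 and at 27.1, 5.3 and 11.9 on homocysteine arrays 1 to 3. Each value lay below the background of its own array, and the groups overlapped. No fold is given for a gene at this level.

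OTX2, which sets the forebrain and midbrain domain, was read at 314.7, 164.4 and 470.1 in control and at 425, 108.2 and 241.1 with homocysteine. The arrays numbered 2 were the lowest of each group, the highest array was 4.34 times the lowest, and the groups overlapped. Its second probe set read between 23.8 and 52.7 and was below background on all 6 arrays. OTX2 is therefore reported from 1 probe set.

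EN1, a homeodomain factor of midbrain and isthmus, was read at 93.9, 145.8 and 177 in control and at 36.4, 106.6 and 163 with homocysteine. It fell below background on homocysteine array 1 only, where the background was 77.2. The arrays numbered 1 were the lowest of each group and those numbered 3 the highest, and the groups overlapped.

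PAX2, a paired-box factor of the isthmus, was read by its main set at 273.3, 126.5 and 226.5 in control and at 219.3, 146.6 and 160.4 with homocysteine. All values were above background, and the arrays numbered 2 were the lowest of each group. The second PAX2 set was read at 111.8, 19.9 and 238.4 in control and at 25.7, 21.1 and 196.5 with homocysteine. It was above background on 2 control arrays and 1 homocysteine array, so no ratio between its arrays is given. The sets disagreed on homocysteine array 1, the highest of its group in the main set and far below background in the second.

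FGF8, the signal of the isthmus, was read at 9, 7.6 and 96 in control and at 6.1, 6.5 and 7.3 with homocysteine. Control array 3 alone exceeded its background, of 65.6. The other 5 values lay within a narrow band far below background, so FGF8 transcript was not detectable on them at this signal.

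MEIS2, the homeodomain cofactor, was read by its main set at 162.5, 652.4 and 711.8 in control and at 194.5, 491.1 and 501 with homocysteine. Both arrays numbered 1 lay below the other 4, with no overlap between them. The second MEIS2 set was read at 200.5, 209.9 and 311.5 in control and at 203.4, 323.6 and 288.5 with homocysteine. It was above background on every array, its highest value was 1.61 times its lowest, and control array 2 read close to the arrays numbered 1.

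**Figure D1:**
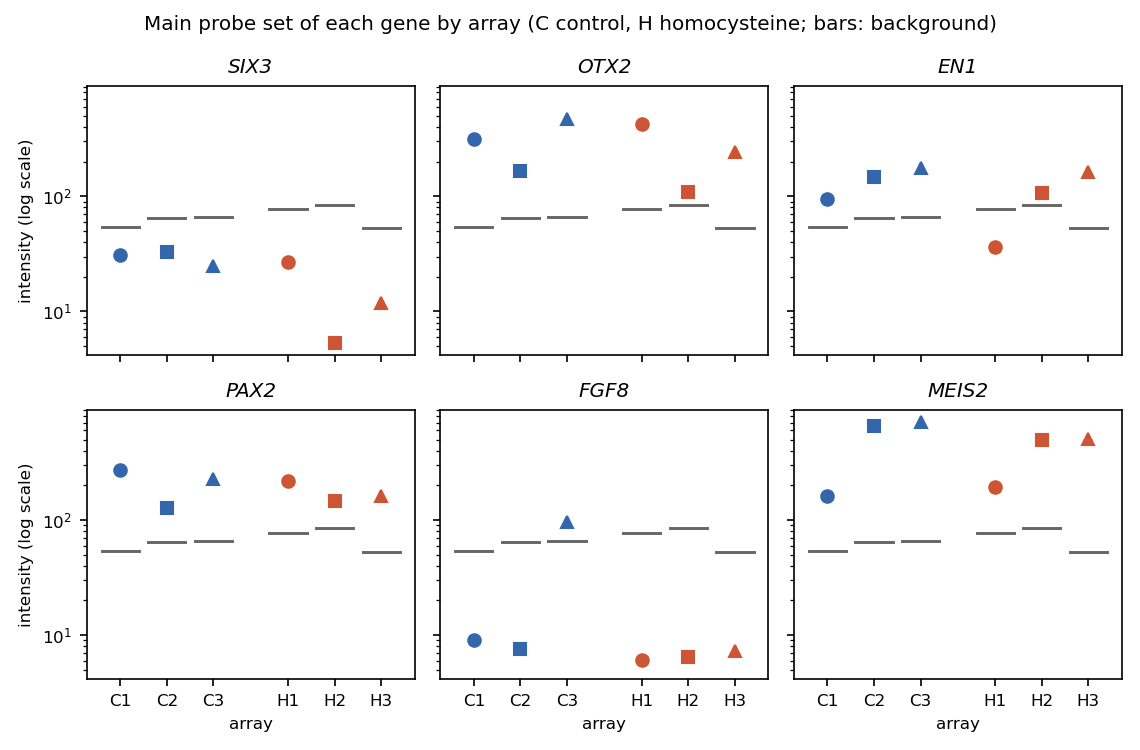
Intensity (log scale) of the main probe set of the 6 measured genes on control (C, blue) and homocysteine (H, red) arrays, with marker shape by array number and a grey bar at each array's background. OTX2, PAX2 and MEIS2 lie above the bars on all 6 arrays, SIX3 lies below them on all 6, and MEIS2 is lowest on C1 and H1 at 162.5 and 194.5.

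Wider lists of regional genes, counted whole, placed these genes among their neighbours. The lists, like the members, were chosen with earlier results of these data known. Of 26 forebrain genes 18 were measured, and 7 of the 18 were above background on at least 3 arrays, where 72.9% of all genes were. Another 7 were above it on no array: SIX3, SIX6, VAX1, EMX2, DLX1, LHX2 and TBR1. No brain tissue of this stage was measured for comparison, so these calls do not show that forebrain cells were absent. SIX6 and VAX1 belong to the eye field and ventral forebrain, EMX2 and TBR1 to the dorsal forebrain. The 6 forebrain-list genes above background on every array were PAX6, DLX5, SP8, OTX2, TCF7L2 and FOXD1. The remaining gene of the 7, HESX1, was above it on 4 arrays and below it on both arrays numbered 2. HESX1 read 74.6, 33.4 and 97.7 in control and 115.9, 38.3 and 67.8 with homocysteine. PAX6 is also a gene of hindbrain and spinal cord progenitors, and DLX5 of anterior ectoderm and crest. PAX6 read between 4927.7 and 8036.5 and DLX5 between 3018.3 and 5978.9 over the 6 arrays. SP8, a zinc finger factor, read between 2197.9 and 3528, and TCF7L2, a nuclear effector of Wnt signalling, between 203.4 and 326.4. FOXD1, a forkhead factor, read 372.5, 154.4 and 277.8 in control and 302.6, 156.2 and 208.4 with homocysteine. Like OTX2, it was lowest on the arrays numbered 2.

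Of 27 midbrain and isthmus genes 19 were measured, with 16 above background on at least 3 arrays, where 72.9% of all genes were. On all 6 arrays 12 were, a share near that of all genes (7925 of 13009). GBX2, which is expressed on the hindbrain side of the isthmus and opposes OTX2 there, read between 7996 and 15433.9. IRX1, an Iroquois homeodomain factor, read between 1300.7 and 2259.4. PAX7, a dorsal neural tube and crest factor, read 294.7, 1100.6 and 933.7 in control and 264.5, 1066.1 and 891.8 with homocysteine. Like the main MEIS2 set, it was lowest on the arrays numbered 1. LMX1B, an isthmus and roof plate factor, read between 176 and 225.9, and PAX5, a paired-box partner of PAX2, between 84.6 and 194.4. ETV4 and ETV5, transcription factors induced by FGF signalling, were above background on all 6 arrays, ETV5 between 432.2 and 1007.5. The FGF feedback inhibitor SPRY2 read between 211 and 553, lowest in each group on the arrays numbered 2. WNT1, the other signal of the isthmus, was above background on no array, with values from 6.1 to 53.1.

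Of 24 hindbrain genes 17 were measured. All 17 were above background on at least 3 arrays, where 72.9% of all genes were. GBX2 and MEIS2 stand in the midbrain list as well, and the count alone does not show the axial level of the cells. On all 6 arrays 11 were, a share near that of all genes (7925 of 13009). HOXB1, HOXA2, HOXA3, HOXB3, HOXA4 and HOXD4 were among the 11. HOXA3 read between 2141.1 and 4998.5 and HOXD4 between 3231.5 and 4866.3. HOXB1 read between 1325 and 1957.5 and HOXB3 between 1248.4 and 2247.2. CYP26C1, a retinoic acid degrading enzyme of the hindbrain, read between 1994.8 and 3525.2. GBX1 read 113.9, 394.6 and 479.5 in control and 183.4, 587.4 and 453.2 with homocysteine, again lowest on the arrays numbered 1.

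**Figure D2:**
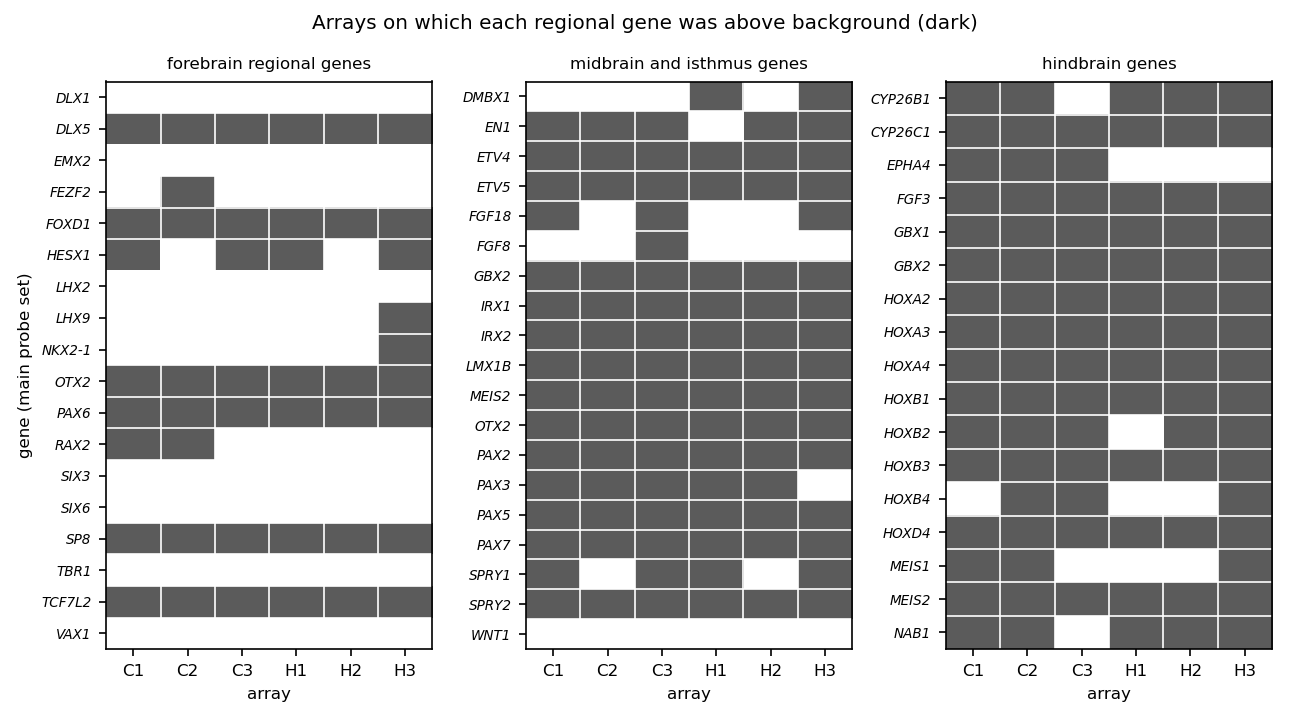
Arrays (columns, C control and H homocysteine) on which the main probe set of each measured gene (rows) exceeded background (dark), for 18 forebrain, 19 midbrain and isthmus and 17 hindbrain genes, some of which stand in more than 1 list. The forebrain panel holds 7 rows with no dark cell, the midbrain panel 1 (WNT1) and the hindbrain panel 0.

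Arrays of the same group differed in OTX2, EN1 and MEIS2 as read by their main sets. Over the 6 arrays the SD of the log2 value was 0.82 for OTX2, 0.84 for EN1 and 0.91 for MEIS2, and the log2 difference between the group means was -0.38, -0.65 and -0.22. The SD was 0.43 for the main PAX2 set and 0.33 for the second MEIS2 set. The median SD of all 14437 probe sets above background on every array was 0.31. EN1 is not among these, since its value on homocysteine array 1, 36.4, was below background. Dim probe sets vary more, and no allowance was made for brightness.

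Whether same-numbered arrays were alike beyond the remaining spread was tested with an F test in limma, with treatment in the model. No probe set of the whole table passed an adjusted p of 0.05 (0% called, smallest adjusted p 0.379), and 11.6% had an unadjusted p under 0.05. Among the 9 member sets 0 passed and 2 had an unadjusted p under 0.05. These were the main MEIS2 set (limma, adjusted p = 0.388) and the second PAX2 set (limma, adjusted p = 0.395), of whose 6 values 3 were below background. For OTX2 the adjusted p was 0.454 and for EN1 0.441 (limma).

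The call depended on the variance model. With a trended and robust variance, 3518 of all 38382 probe sets passed. The main MEIS2 set then had an adjusted p of 0.00184, the second PAX2 set of 0.0165 and OTX2 of 0.0274 (limma). EN1 had 0.0872 and the main PAX2 set 0.248 there (limma), and neither passed under any setting run; the lowest value for EN1 was 0.0527, with values raised to background (limma). Without both arrays numbered 1, the adjusted p was 0.96 for the main MEIS2 set, 0.784 for OTX2 and 0.775 for the second PAX2 set (limma). The smallest of the whole table was then 0.775, so adjusted values cannot show what rests on those arrays. Unadjusted, p went from 0.0149 to 0.82 for the main MEIS2 set and from 0.0725 to 0.0345 for OTX2 (limma). For the second PAX2 set it went from 0.0266 to 0.0035 (limma).

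**Figure D3:**
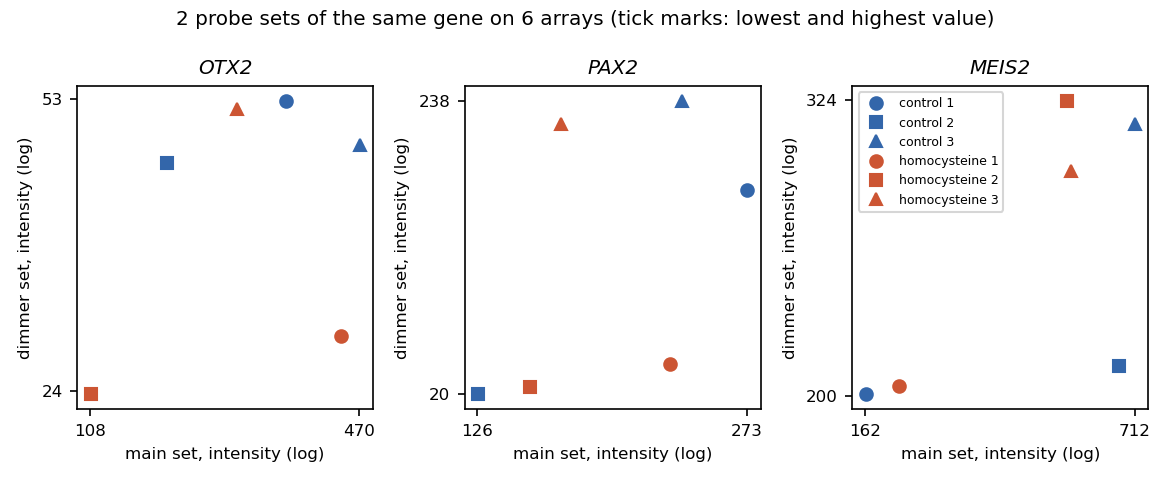
The main probe set (x axis) against the dimmer one (y axis) of OTX2, PAX2 and MEIS2, in intensity on log scales, 1 point per array, with ticks at the lowest and highest value. For PAX2 the second set spans 19.9 to 238.4 while the main set spans 126.5 to 273.3, and for MEIS2 control 2 is high in the main set and low in the second.

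Summed intensities of some marker lists were lowest or highest on the same arrays as some member sets, though not every marker followed the sum of its list. Summed intensity of the 8 crest markers was 16219.8 and 17235.9 on the arrays numbered 1 and between 23241.2 and 26664.8 on the other 4, the same split as the main MEIS2 set. EN1 showed this split too, though on homocysteine array 1 it was below background. Among the crest markers SOX9, TFAP2A and LMO4 did not split this way, and LMO4, at 9085.1 to 12269.9, is the largest part of the sum. Summed intensity of the 5 neural tube progenitor markers split likewise, at 12598.6 and 14250.5 against 17680.9 to 20096, and so did each of the 5. The ACTB ratio of 5′ to 3′ signal also split this way. The 4 measured surface ectoderm markers, EPCAM and CDH1 among them, summed to 4456.1 and 5082.3 on the arrays numbered 2 and to between 6169.4 and 10418.1 on the others. That sum is mostly EPCAM, at 3428.9 to 7740.8, and CDH1, at 614.5 to 2447.6. The other markers went against it: GRHL3 was highest on control array 2, at 152.2, and TP63 was lowest in each group on the arrays numbered 3, at 195.5 and 224.4. OTX2 and the main PAX2 set were, like the sum, lowest on the arrays numbered 2. The 7 measured placode markers summed to 3522.2 and 4128.9 on the arrays numbered 2 and to between 4865 and 7178.9 on the others, and most of that sum is DLX5. EYA1 and DLX3 among them were above background on no array. Of intermediate mesoderm markers, LHX1 and GATA3 were measured, summing to between 135.5 and 274.9. The sum was highest on the arrays numbered 3, as the second PAX2 set and GATA3 were; LHX1 was not. DLX5 stands in the placode and forebrain lists, PAX6 in the progenitor and forebrain lists, SPRY2 in the placode and midbrain lists and GATA3 in the placode and mesoderm lists, so these sums are not independent. The 8 mesoderm and somite markers, of which TBX6 and TCF15 were above background on no array, summed to between 715.5 and 1219.6 in control and 1074.6 and 1879.2 with homocysteine. Most of the highest sum is TBXT, at 266.1 to 591.5 in control and 350.9 to 1363 with homocysteine. MEOX1 was highest on control array 3, at 481.6, and MEOX2, FOXC1, FOXC2 and MESP1 were above background on some arrays only. The 4 endoderm and floor plate markers summed to between 596 and 988 in control and between 707.9 and 1074.6 with homocysteine. The part of any of these in the values of OTX2, EN1, PAX2 and MEIS2 was not tested.

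**Figure D4:**
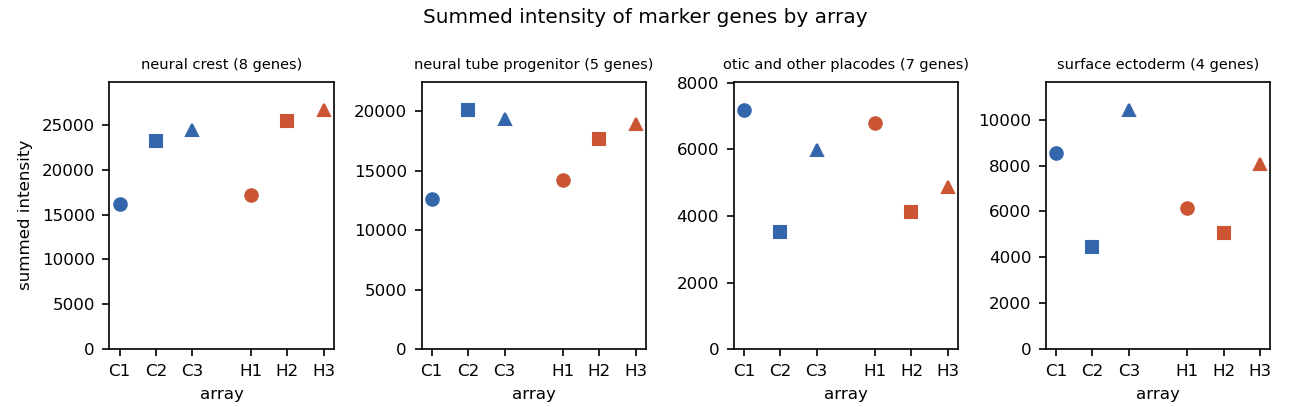
Summed intensity (linear scale from 0) of the main probe sets of 4 marker lists on control (C) and homocysteine (H) arrays. The crest and progenitor sums are lowest on C1 and H1, and the placode and surface ectoderm sums are lowest on C2 and H2.

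The genes whose log2 values followed each member most closely over the 6 arrays were sought among 7924 other genes above background on every array. Nearest to MEIS2 were SSBP3, ZDHHC9 and NOL7, with Pearson r of 0.9987, 0.9971 and 0.9962, and 275 genes reached 0.95. Nearest to PAX2 were ARSJ, NFS1 and PPARGC1A, with r of 0.9945, 0.9923 and 0.9909, and 49 genes reached 0.95. Nearest to OTX2 were ZBTB49, BRWD1 and PRRG1, with r of 0.9884, 0.9817 and 0.9794, and 21 genes reached 0.95. These r describe 6 shared arrays, are the highest of the 7924 and hold for the main set of each member only. The 2 sets of the same gene correlated by 0.66 for MEIS2, 0.51 for PAX2 and 0.37 for OTX2. MEIS2, SSBP3, ZDHHC9 and NOL7 were all lowest on the arrays numbered 1, and no r was computed without those arrays. SSBP3, a cofactor of LIM-domain transcription factors, read 1653.3 and 1820.3 on those arrays and 3092.3 to 3776.8 on the others.

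The comparison of homocysteine with control asks which of these genes change within 6 h. None passed in limma after Benjamini-Hochberg adjustment over all 38382 probe sets: 0 of the 9 member sets were called (0% of the table), and 0 had an unadjusted p under 0.05 (3.97% of the table). All 6 main sets were lower with homocysteine on the log2 scale, by a median of -0.51, where 48.4% of the main sets of all genes were lower and their median was 0.0084. That median includes SIX3 and FGF8, whose values were at or below background on nearly all arrays. Over the other 4 members, of which EN1 was below background on homocysteine array 1, it was -0.30. This sign was not stable. It turned when 1 array was left out for OTX2, PAX2 and MEIS2. For SIX3 and FGF8 it also turned when values were raised to background, but that sign is no result for these genes. All SIX3 values, and all FGF8 values but that of control array 3, are then the backgrounds of the arrays.

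EN1 averaged 138.9 ± 41.98 in control (SD, n = 3) and 102 ± 63.43 with homocysteine (SD, n = 3). Its log2 change was -0.65, and the 95% interval ran from -2.17 to 0.88 (limma, adjusted p = 0.9999, as for all 9 member sets). EN1 was below background on homocysteine array 1, so -0.65 is no size of change. With values raised to background the log2 change of EN1 was -0.28. Between same-numbered arrays its log2 difference was -1.37, -0.45 and -0.12, lower with homocysteine each time, and the first of these ends below background. Without homocysteine array 1 the log2 change of EN1 was -0.03, a comparison that keeps control array 1, the lowest of the controls. Without both arrays numbered 1 the log2 change of EN1 was -0.29.

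OTX2 averaged 316.4 ± 152.9 and 258.1 ± 159.1 (SD, n = 3 each). The limma estimate was -0.38 in log2, the interval running from -1.95 to 1.19. Its differences between same-numbered arrays were 0.43, -0.60 and -0.96, so the arrays numbered 1 went against the other pairs. Without homocysteine array 2 the log2 change of OTX2 was 0.14, and without both arrays numbered 1 it was -0.78.

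PAX2 averaged 208.8 ± 74.99 and 175.4 ± 38.61 by its main set (SD, n = 3 each). The limma estimate was -0.20 in log2, the interval running from -1.16 to 0.76. By number the differences were -0.32, 0.21 and -0.50. Of the second PAX2 set 3 of 6 values were below background, and no size of change is given for it.

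MEIS2 averaged 508.9 ± 301.5 and 395.5 ± 174.2 by its main set (SD, n = 3 each). The limma estimate was -0.22 in log2, the interval running from -1.98 to 1.54. By number the differences were 0.26, -0.41 and -0.51. The second MEIS2 set had the opposite sign, 0.18, the interval running from -0.65 to 1.00. The sign of the main set turned without control array 2, control array 3 or homocysteine array 1, at 0.09, 0.16 and 0.23.

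FGF8 was the one member whose groups did not overlap, with every homocysteine value below every control value; 7.14% of all probe sets had groups without overlap. The difference rests on values below background apart from control array 3, and no fold is given. The SIX3 groups overlapped.

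**Figure D5:**
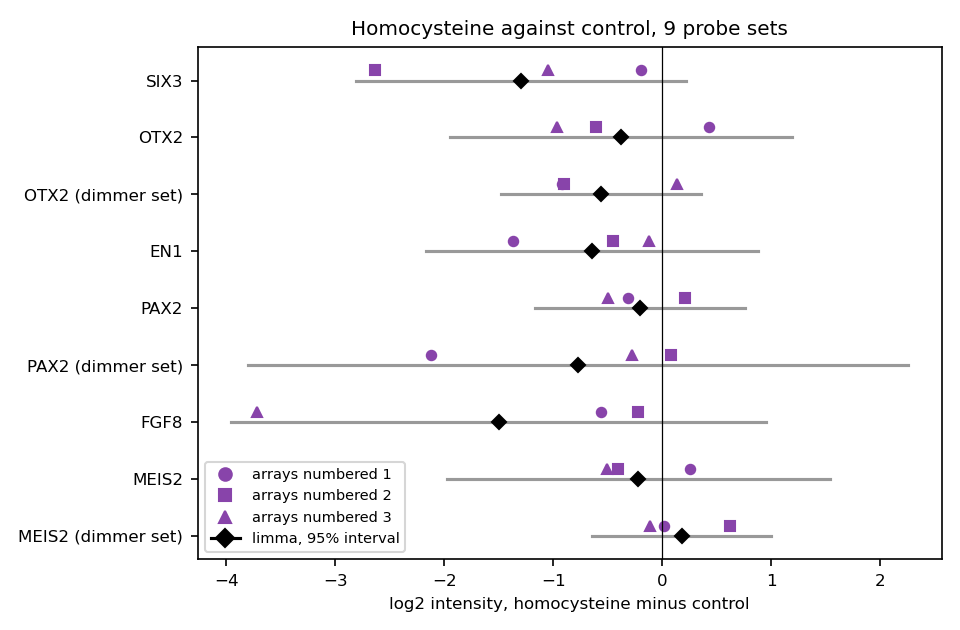
Log2 intensity in homocysteine minus control for the 9 probe sets: black diamonds and grey lines give the limma estimate and its 95% interval, purple symbols the difference between arrays of the same number. SIX3, FGF8, the second OTX2 set and, on some arrays, EN1 and the second PAX2 set were below background, so their positions are not sizes of change. All 9 intervals cross 0, and EN1, SIX3 and FGF8 are the genes with all 3 purple symbols left of 0.

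In the wider lists 0 genes passed in either direction (limma). Of the 18 forebrain genes, 10 were higher and 8 lower with homocysteine (median log2 change 0.09). Of the 19 midbrain and isthmus genes, 6 were higher and 13 lower (median -0.22). Of the 17 hindbrain genes, 10 were higher and 7 lower (median 0.08). Over leaving out each array in turn, these medians ran from -0.22 to 0.15 for forebrain, -0.32 to 0.13 for midbrain and isthmus, and -0.19 to 0.16 for hindbrain, so each took both signs. These medians include genes below background. DMBX1, a homeodomain gene of the midbrain that was chosen here after its values were seen, was read at 22.1, 25.6 and 21.8 in control and at 108.3, 75.7 and 69 with homocysteine. It was below background on all control arrays and above it on homocysteine arrays 1 and 3, and the groups did not overlap. Homocysteine array 2 was itself below its background of 84.9, so no fold is given. The adjusted p was 0.388 on the values as read and 0.784 with values raised to background (limma). The other genes of these lists at an unadjusted p under 0.05 (limma) were VAX1 and TBR1, above background on no array, and EPHA4. EPHA4, an ephrin receptor gene of hindbrain segments, read 99.7, 177.4 and 193.7 in control and 30.4, 74.6 and 37.9 with homocysteine. It was above background on all 3 control arrays and no homocysteine array (limma, adjusted p = 0.948). The value of 74.6 lay below that array's background of 84.9 but above the background of each control array, at most 65.6.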

How the data were processed

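The deposited table holds linear intensity values per probe set, 1 column per array. RMA is named, without a version, in the submitters' processing notes. The values do not look like RMA output, since they are linear and differ in their quantiles, and each array's mean is 500.1 once 2% is trimmed from both ends. What the authors did to reach that scale is not stated. The 96 Affymetrix control and 57 reporter sets were left out of tests. Log2 of the intensity was tested with limma 3.58.1 in R 4.3.3 (lmFit, eBayes, two-sided, no replicate block), adjusted over 38382 probe sets by Benjamini-Hochberg, threshold 0.05. The fit was tested on simulated data, where it recovered most very large changes but none of the smaller size tried. The absence of calls therefore does not show the absence of change. The simulated spread was that left after treatment and replicate number were fitted, with no difference by number outside the changed sets. It thus differs from the spread in the test without a block. Symbols came from the platform annotation, updated by gene number from RefSeq (assembly GRCg7b); 27168 probe sets had 1 symbol. Members, gene lists and tests were chosen with earlier results of these data known. Named were all members, in each list the brightest other genes above background on all 6 arrays (up to 6), and the 3 genes most correlated with each member above background on all 6. HESX1, PAX5, ETV4, WNT1, DMBX1, HOXA2, HOXA4, GBX1, EPHA4 and the forebrain genes above background on no array were named after their values were seen. The number of arrays limits the precision: 0.10 is the smallest two-sided p of an exact permutation test of 3 against 3. Alternatives covered normalization, dim values, variance, probe set summary, the replicate block and leaving out arrays.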

Additional observations from a re-analysis of the deposited data

How the results depend on the processing

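The count of probe sets called between homocysteine and control was 0 in all 15 alternatives run, with 375 to 2107 at an unadjusted p under 0.05. Deviations from group means of same-numbered arrays correlated by 0.172, 0.108 and 0.0486 over all probe sets. Over those above background on at least 3 arrays they correlated by 0.586, 0.479 and 0.198. The highest correlation of each control array with a homocysteine array of another number was -0.0439, 0.0003 and 0.0426 over all probe sets. Over the brighter sets it was -0.145, 0.011 and 0.203. Arrays numbered 1 and 2 were thus more alike within their number under both choices. Those numbered 3 were hardly so over all probe sets and not over the brighter ones. No label says what a number marks. The replicate block changed no call and gave 0 calls, with 2023 at an unadjusted p under 0.05. The count called between same-numbered arrays was 0 as reported. Of 38382 probe sets, 3518 were called with a trended and robust variance and 3074 with values raised to background. It was 0 in the other 6 alternatives. With values raised to background, which takes the spread from dim sets, the adjusted p was 3.17e-05 for OTX2, 5.68e-08 for MEIS2 and 2.41e-05 for the second PAX2 set. The members above background numbered 4 to 6 over 11 alternatives, and 6 with the median of the reporter sets as background. With the 99th percentile EN1 was above it on 3 arrays and OTX2 on 5. No member set passed between homocysteine and control in any alternative. The log2 change turned for OTX2 to 0.14 without homocysteine replicate 2 and for PAX2 to 0.0295 without control replicate 1. The second PAX2 set turned without control replicate 3, but 3 of its 6 values were below background, so no size is given. For MEIS2 the log2 change turned to 0.09, 0.16 and 0.23 without control replicates 2 and 3 and homocysteine replicate 1. With values raised to background it was 0.21 for SIX3 and for the second OTX2 set and 0.0244 for FGF8. All values of SIX3 and the second OTX2 set, and all of FGF8 but control replicate 3, are then array backgrounds. These signs are therefore no result for the genes. The cause of the other turns was not tested. Leaving out 1 array in turn, the ranges were -0.84 to 0.14 for OTX2, -0.53 to 0.03 for PAX2, -1.80 to 0.0073 for its second set and -0.91 to 0.23 for MEIS2. EN1 kept its sign over all 15 alternatives, from -1.11 to -0.03, and stood at -0.28 with values raised to background. The list medians ranged from -0.22 to 0.19 for forebrain, -0.32 to 0.13 for midbrain and -0.19 to 0.17 for hindbrain genes. The setting without both arrays numbered 1 was chosen after the data were examined.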
